A study of Mus musculus with 6 samples.

Results

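The FoxO transcription factors and the enzymes that remove superoxide and peroxide were examined in mouse haematopoietic stem cells (HSCs) sorted on CD38, a surface enzyme that breaks down NAD. The set was given by name and held 10 genes of the 49585 listed: Foxo1, Foxo3, Foxo4, Nfe2l2, Txnip, Sod1, Sod2, Cat, Gpx1 and Prdx1. All 10 were found by their Ensembl identifiers. RNA was sequenced from 3 CD38-positive and 3 CD38-negative libraries, each from the sorted HSCs of 10 untreated C57BL/6 mice of 8 to 16 weeks. Both populations carried the same other sorting markers per the labels: no lineage markers, Kit and Sca-1 present, CD48 absent, CD150 present, CD34 absent and CD201 present. No genotype or drug differed between them. The design text sets each CD38-positive library against a CD38-negative one, which gives 3 pairs, but it does not say whether a pair came from the same mice. A pooled library gives no value for a single animal. CD38-positive and CD38-negative cells are the upper and the lower part of one sorted population, not separate cell lines.

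FoxO factors are forkhead transcription factors that stay in the nucleus when growth factor signalling is low and are sent to the cytoplasm when the kinase AKT phosphorylates them. In the nucleus they switch on genes for cell cycle arrest, survival and removal of reactive oxygen. In HSCs they are known for holding the cells in quiescence and keeping reactive oxygen low. NRF2, the product of Nfe2l2, is the main activator of antioxidant genes and is held in check by KEAP1. Superoxide dismutases turn superoxide into hydrogen peroxide, which catalase, glutathione peroxidases and peroxiredoxins then remove. Much of the control of FoxO and NRF2 acts on the proteins, which RNA counts do not show.

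None of the members differed between the populations past an adjusted p of 0.05 in edgeR's quasi-likelihood test with the pair as a block. Of the 10 members, 9 passed the filter on low counts and were tested, and 0 of the 9 were called. Across all 14785 genes tested, 2 were called, which is 0.0135% of them. At an unadjusted p under 0.05 there were also 0 of 9 members, against 5.08% of all tested genes. DESeq2 and limma-voom, with the same block, also called 0 of the 9 at either threshold. In 0 of the 9 did the ranges of CPM (reads scaled to a common library total) of the populations lie apart, against 6.53% of all tested genes. The smallest p-value among them was that of Gpx1, at 0.235 before adjustment and 0.932 after it (edgeR). The 9 members had a median log2 fold change of 0.07 (CD38-positive over CD38-negative) and a median size of change of 0.10. Over all tested genes these medians were 0.00 and 0.20. The median SE was 0.20 for the members and 0.26 for all tested genes, so these sizes were not measured with equal precision.

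**Figure D1:**
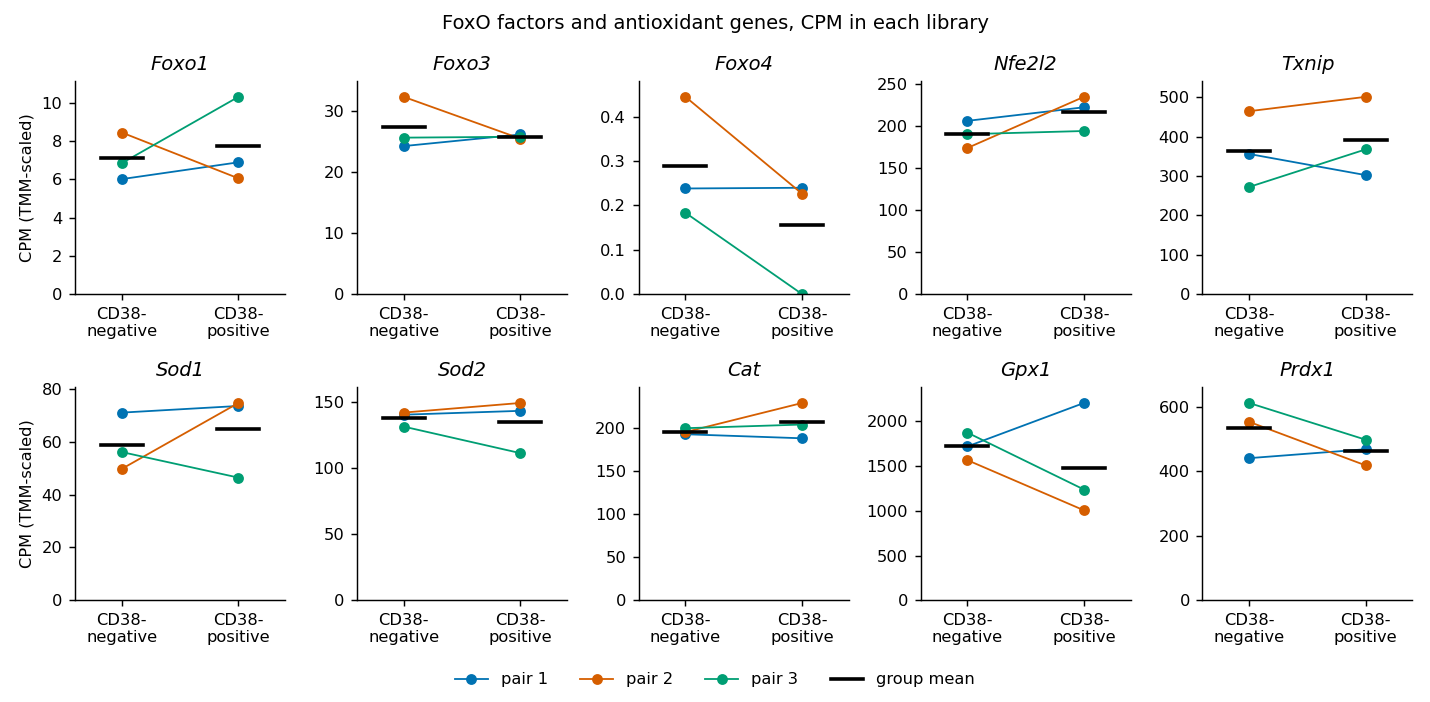
Level of each member in each library, as CPM on TMM-scaled library sizes, with a separate axis from 0 for each gene. Lines join the libraries of a pair and black bars are group means. The populations overlap for every member, and the lines of a gene run in different directions for all tested members but Nfe2l2.

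Of the members, 4 carry letters in their promoters that FoxO factors or NRF2 can bind, and those stretches are shown to give the level of each gene its regulatory setting. Promoter windows of 300 bases, from 250 before to 50 after the RefSeq start (build GRCm38.p6), were found for 9 of the 10 members, all but Foxo4. The FoxO core GTAAACA was searched on both strands and occurred in 1 of these 9 windows, that of Txnip, and in 3.65% of the 32851 windows in the table. The core of the antioxidant response element, TGACNNNGC, occurred in 3 of the 9, those of Prdx1, Nfe2l2 and Sod1, and in 12.4% of all windows. Where its N letters read TCA, as in Prdx1, this core also holds the AP-1 motif TGACTCA. A match describes the letters only and is not a shown binding site.

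The stretches before the start of these genes follow, 5′ to 3′ along each gene's strand, with the matched letters in capitals. They lie at chr3:96557707-96557956 (plus strand) for Txnip, chr4:116685349-116685543 (plus) for Prdx1, chr2:75704664-75704913 (minus) for Nfe2l2 and chr16:90220512-90220753 (plus) for Sod1.
Txnip: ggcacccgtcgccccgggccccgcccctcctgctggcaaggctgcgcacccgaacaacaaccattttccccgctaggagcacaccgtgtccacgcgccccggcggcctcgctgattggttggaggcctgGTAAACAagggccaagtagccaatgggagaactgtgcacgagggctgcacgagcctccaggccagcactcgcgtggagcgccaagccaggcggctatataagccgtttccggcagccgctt
Prdx1: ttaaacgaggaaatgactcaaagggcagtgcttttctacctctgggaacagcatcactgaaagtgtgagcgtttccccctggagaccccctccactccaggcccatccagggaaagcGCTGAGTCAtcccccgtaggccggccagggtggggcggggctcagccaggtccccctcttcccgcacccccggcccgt
Nfe2l2: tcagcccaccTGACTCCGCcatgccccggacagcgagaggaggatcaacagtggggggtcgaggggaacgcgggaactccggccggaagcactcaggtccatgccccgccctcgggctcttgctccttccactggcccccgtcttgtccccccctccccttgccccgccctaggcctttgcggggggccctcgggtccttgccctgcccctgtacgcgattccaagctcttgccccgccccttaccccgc
Sod1: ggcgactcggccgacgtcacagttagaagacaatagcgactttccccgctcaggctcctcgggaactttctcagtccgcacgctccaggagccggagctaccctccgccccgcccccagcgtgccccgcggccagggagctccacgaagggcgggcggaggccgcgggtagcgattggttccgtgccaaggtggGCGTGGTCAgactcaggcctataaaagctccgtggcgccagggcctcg

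Counted from the RefSeq start, the match in Txnip began 121 bases before it, that in Prdx1 133, that in Nfe2l2 240 and that in Sod1 56. The stretches of Prdx1 and Sod1 are shown only up to an earlier GENCODE start and end 55 and 8 bases before the RefSeq start. In Prdx1 and Sod1 the match was on the opposite strand, so the letters shown are the reverse complement of the core. The other windows, those of Foxo1, Foxo3, Sod2, Cat and Gpx1, held neither set of letters.

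Among the FoxO factors, Foxo3 was the main transcript. Levels between genes were compared as CPM per kilobase of merged exon length, and Foxo3 was at 3.51 ± 0.379, Foxo1 at 0.857 ± 0.192 and Foxo4 at 0.0637 ± 0.0408 (mean ± SD over 6 libraries). Foxo3 thus held 79.3% of the summed FoxO level per kilobase on average, with a range of 74.1% to 81.5% over the 6 libraries. The order Foxo3, Foxo1, Foxo4 held in 6 of 6 libraries, and the ranges of the 3 genes did not overlap. Foxo6, the remaining member of the family and not part of the set, had 0 reads in the 6 libraries, which allows up to 3 reads in each, or 0.166 to 0.183 CPM. With the length of the principal transcript in place of merged exons, a choice made after the data were seen, the Foxo3 share was 80.8%.

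Foxo3 (chromosome 10, 42181841 to 42276755, minus strand, GRCm38) is the FoxO factor best known for maintaining adult HSCs. It was at 26.1, 25.5 and 25.8 CPM in CD38-positive replicates 1, 2 and 3 and at 24.2, 32.3 and 25.6 CPM in their CD38-negative partners. Apart from the CD38-negative library of pair 2, which was higher, the libraries lay close together and the populations overlapped. The fitted log2 fold change was -0.08 with an SE of 0.22 and a 95% interval from -0.54 to 0.39 (edgeR adjusted p = 0.975). On the linear scale the interval ran from 0.687-fold to 1.31-fold.

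Foxo1 (chromosome 3, 52268336 to 52353221, plus strand) also acts in lymphocyte development. Its values were 6.89, 6.05 and 10.3 CPM in the CD38-positive and 6.01, 8.45 and 6.85 CPM in the CD38-negative libraries. The highest library was CD38-positive replicate 3 and the next CD38-negative replicate 2, and the pairs differed in direction, with log2 differences of 0.19, -0.47 and 0.58. Fitted over the pairs, the change was 0.10 (SE 0.30, edgeR adjusted p = 0.975), and its interval from -0.54 to 0.75 was the widest of the 9. Foxo1 rests on 101 to 187 reads per library, for which counting alone gives a coefficient of variation (CV) of 8.80%, against 22.4% observed over the 6 libraries. An antisense gene, Gm20402, shares 674 exon bases with it but had 14 reads in all.

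Foxo4 (chromosome X, 101254528 to 101260873, plus strand), the remaining FoxO member, was near the limit of detection. Reads numbered 4, 4 and 0 in CD38-positive replicates 1, 2 and 3 and 4, 8 and 3 in their partners. It did not pass the filter on low counts. In the fit with no filter its log2 fold change was -1.07 with an SE of 1.28 (edgeR unadjusted p = 0.402, adjusted p = 0.975). The mean level of the CD38-positive libraries was 0.155 ± 0.135 CPM (SD, n = 3) and that of the CD38-negative ones 0.289 ± 0.138 CPM (SD, n = 3). A difference was not detectable at this depth.

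Nfe2l2 (chromosome 2, 75675513 to 75704641, minus strand), which encodes NRF2, was the member that differed in the same direction in all pairs. It was at 222, 234 and 194 CPM in CD38-positive replicates 1, 2 and 3 and at 206, 174 and 190 CPM in their CD38-negative partners. Each CD38-positive library was above its partner, but CD38-positive replicate 3 was below CD38-negative replicate 1. The pair differences were 0.11, 0.43 and 0.03 on the log2 scale. The fitted change of 0.19 (SE 0.19, edgeR adjusted p = 0.936) had an interval from -0.22 to 0.60, that is from 0.860-fold to 1.51-fold. Of the 9 members 1 was higher in all 3 pairs and 0 were lower in all 3, while among all tested genes 13.2% were higher and 11.3% lower in all 3 pairs.

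Txnip (chromosome 3, 96557957 to 96561883, plus strand) encodes a protein that binds thioredoxin and blocks its reducing activity, and it is a gene linked to HSC quiescence. It was among the members that varied most between libraries. Its values were 303, 502 and 368 CPM in the CD38-positive and 356, 465 and 272 CPM in the CD38-negative libraries. Both libraries of pair 2 were high, and the populations overlapped. The pair differences of -0.24, 0.11 and 0.43 spanned 0, and the fitted change was 0.10 (SE 0.20, edgeR adjusted p = 0.966, interval -0.33 to 0.54).

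The Txnip locus also holds Gm15441, an antisense gene (chromosome 3, 96555765 to 96566801, minus strand) that spans the whole of Txnip and shares 606 exon bases with it. Reads of Gm15441 numbered 941, 1796 and 1188 in CD38-positive replicates 1, 2 and 3 and 1135, 1540 and 636 in their partners. Txnip itself had 5047, 8866 and 6672 reads in the former and 5984, 8365 and 4456 in the latter. The antisense reads therefore came to 14.3% to 20.3% of the Txnip reads, and Gm15441 differed in the same direction as Txnip in each pair, by -0.26, 0.25 and 0.75 on the log2 scale. Its fitted change was 0.25 (SE 0.22, edgeR adjusted p = 0.936). The strand setting of the counting is not given in the sources used here, so reads of the shared bases cannot be assigned to either gene with certainty.

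**Figure D2:**
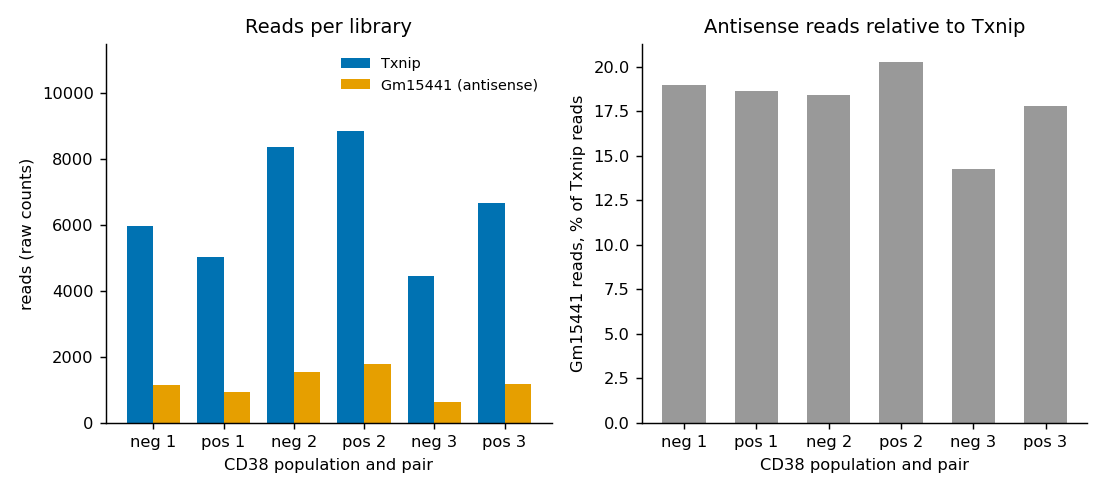
Left, raw reads of Txnip and of the antisense gene Gm15441 in each library, ordered by pair (neg, CD38-negative; pos, CD38-positive). Right, Gm15441 reads as a percent of Txnip reads, from 14.3% in CD38-negative replicate 3 to 20.3% in CD38-positive replicate 2.

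For both superoxide dismutases the populations overlapped and no difference passed the test. Sod1 (chromosome 16, 90220754 to 90226329, plus strand), the copper and zinc enzyme of the cytosol, was at 73.5, 74.6 and 46.4 CPM in the CD38-positive and 71.0, 49.7 and 56.1 CPM in the CD38-negative libraries. High and low libraries occurred in both populations. The libraries highest in Sod1, CD38-positive replicates 1 and 2, had the lowest summed HSC markers (714 and 882 CPM), and those lowest in Sod1, CD38-positive replicate 3 and CD38-negative replicate 2, the highest (1511 and 2122 CPM); the part of these markers in the Sod1 values was not tested. The pair differences of 0.05, 0.59 and -0.27 gave a fitted change of 0.12 (SE 0.21, edgeR adjusted p = 0.962, interval -0.33 to 0.57). A near-identical copy, Gm8566 (97.8% identity over 465 bases), had 99 reads in the 6 libraries, or 1.55% of those of Sod1. The gene Scaf4 overlaps Sod1 on the other strand without shared exon bases.

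Sod2 (chromosome 17, 13006846 to 13040063, plus strand), the manganese enzyme of mitochondria and a known FoxO3 target, varied less, with a CV of 9.92% over the 6 libraries against 20.5% for Sod1. It was at 143, 149 and 111 CPM in the CD38-positive and 140, 142 and 131 CPM in the CD38-negative libraries. CD38-positive replicate 3 was the low library, and the rest lay within a narrow range. The fitted change of -0.05 (SE 0.19, edgeR adjusted p = 0.982) had an interval from 0.736-fold to 1.28-fold.

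The enzymes that remove peroxide included the members with the highest levels and the tested member with the widest spread (a CV of 27.1% for Gpx1). Cat (chromosome 2, 103453849 to 103485160, minus strand) encodes catalase, the peroxisomal enzyme that splits hydrogen peroxide and another known FoxO target. It was at 188, 229 and 204 CPM in the CD38-positive and 192, 195 and 199 CPM in the CD38-negative libraries. The CD38-negative libraries lay inside the range of the CD38-positive ones. Its CV over the 6 libraries, 7.24%, was the lowest of the 10 members, and only 1.69% of all tested genes had a CV as low or lower. The fitted change was 0.07 (SE 0.19, edgeR adjusted p = 0.970), with an interval from 0.799-fold to 1.39-fold.

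Gpx1 (chromosome 9, 108338903 to 108340343, plus strand), the cytosolic glutathione peroxidase, is a selenoprotein and was by far the most abundant member. It was at 2205, 1006 and 1238 CPM in CD38-positive replicates 1, 2 and 3 and at 1719, 1567 and 1875 CPM in the CD38-negative libraries. The CD38-positive libraries were thus both the highest and the lowest, and enclosed all CD38-negative ones. The means were 1483 ± 636 CPM (SD, n = 3) and 1720 ± 154 CPM (SD, n = 3). Pair 1 differed by 0.36 and pairs 2 and 3 by -0.64 and -0.60 on the log2 scale. The fitted change was -0.30 (SE 0.24, edgeR adjusted p = 0.932), with an interval from -0.81 to 0.22, or 0.572-fold to 1.16-fold. Without pair 1 it was -0.62, with an unadjusted p of 0.0569 in edgeR and an adjusted p of 0.629, the lowest of its 12 alternatives (highest 0.9999).

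The order of the libraries in Gpx1 was close to that in the summed neutrophil and monocyte markers. It was the same as that in the summed T and NK cell markers. The summed level of the 14 neutrophil and monocyte markers was 176183, 79997 and 103279 CPM in CD38-positive replicates 1, 2 and 3. In CD38-negative replicates 1, 2 and 3 it was 127916, 86237.5 and 138923 CPM. Much of this sum was S100a8 and Ngp, at 60085.5 and 35235.9 CPM in CD38-positive replicate 1. Single markers need not follow it: Csf1r was highest, at 115 CPM, in CD38-positive replicate 2. Mmp8 was at 679 and 675 CPM in CD38-positive replicates 1 and 3. The library highest in Gpx1 was also highest in the sum of the 14, and the library lowest in Gpx1 was lowest in it. CD38-positive replicate 3 and CD38-negative replicate 2 changed places. Erythroid markers, 10 in number, were highest in the same library, at 12220 CPM, but lowest in CD38-positive replicate 3, at 4699 CPM. The 7 T and NK cell markers summed to 323, 124 and 130 CPM in CD38-positive replicates 1, 2 and 3. In their CD38-negative partners the sums were 193, 169 and 282 CPM, and most of each sum was Nkg7. All 14 and all 10 markers, and 5 of the 7, had reads in each library. The part of these markers in the Gpx1 values was not tested. In bulk libraries fewer cells of a type and less RNA per cell cannot be told apart.

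The tested genes whose pattern was most like that of Gpx1 were Edem1, Cox6c and Cox7b, with Pearson correlations of log2 CPM of 0.995, 0.993 and 0.992 over the 6 libraries. These are the highest of 11492 genes with a mean of at least 50 counts, of which 80 exceeded 0.95, and with so few libraries they describe these samples only.

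Prdx1 (chromosome 4, 116685544 to 116700822, plus strand) encodes a cytosolic peroxiredoxin that uses thioredoxin to reduce peroxide. Its values were 469, 418 and 498 CPM in the CD38-positive and 441, 554 and 612 CPM in the CD38-negative libraries. As for Gpx1, the CD38-positive library was above its partner in pair 1 and below it in pairs 2 and 3, by 0.09, -0.40 and -0.30. The fitted change was -0.20 (SE 0.20, edgeR adjusted p = 0.936, interval 0.646-fold to 1.17-fold). It has 3 near-identical copies in the annotation, Gm21399, Gm7204 and Gm15974, which together had 0.732% as many reads.

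**Figure D3:**
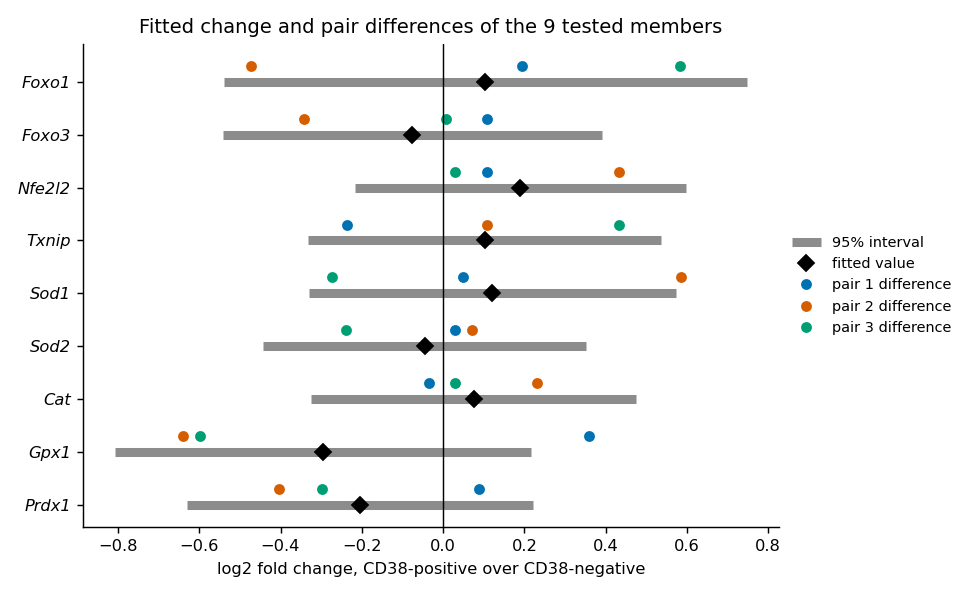
Log2 fold change of the 9 tested members, CD38-positive over CD38-negative. Diamonds are fitted values, grey bars their 95% intervals and coloured points the differences of single pairs, and all intervals include 0.

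The pairs set the direction for most members. Leaving out a pair changed the sign of the fitted value for 6 of the 9 tested members, Foxo1, Foxo3, Sod1, Sod2, Cat and Txnip, while Gpx1, Prdx1 and Nfe2l2 kept theirs. Pair differences had the same signs in Gpx1 and Prdx1, and also in Sod1 and Sod2, which were higher in pairs 1 and 2 and lower in pair 3. Foxo1 and Foxo3 were both higher in pairs 1 and 3 and lower in pair 2. Cat and Txnip were both lower in pair 1 and higher in pairs 2 and 3. Several of these signs rest on small log2 differences. They were 0.008 for Foxo3 in pair 3, and -0.036 and 0.030 for Cat in pairs 1 and 3. In pair 1 they were 0.030 for Sod2 and 0.050 for Sod1. Shared signs over 3 pairs do not show that genes changed together.

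Ordered by level per kilobase of merged exons, the members ran from Gpx1 (1112 ± 301) through Prdx1 (164 ± 24.0), Txnip (121 ± 28.7), Cat (77.0 ± 5.58), Nfe2l2 (53.5 ± 5.86), Sod1 (15.6 ± 3.19) and Sod2 (13.6 ± 1.35) to the FoxO factors (SD over 6 libraries). Gpx1 stood 6.78-fold above Prdx1 and at the 99.8th percentile of all tested genes, and Foxo1 at the 20.6th. Neighbours whose ranges overlapped were Prdx1 with Txnip, Txnip with Cat, and Sod1 with Sod2. The places of Sod1, Cat and Nfe2l2 depended on the length used. By merged exons Cat was above Nfe2l2 in 6 of 6 libraries, with ranges apart. By principal transcript Nfe2l2 was above Cat in 5 of 6, with overlapping ranges. Per kilobase of its principal transcript of 641 bases, instead of 3970 merged exon bases, Sod1 was at 96.5 ± 19.8. That was above Nfe2l2 (82.1 ± 8.99), Cat (77.0 ± 5.58) and Sod2 (23.2 ± 2.30), and its range overlapped those of Txnip, Nfe2l2 and Cat. The Sod2 to Sod1 ratio was then 0.246 on average, against 0.893 with merged exons.

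**Figure D4:**
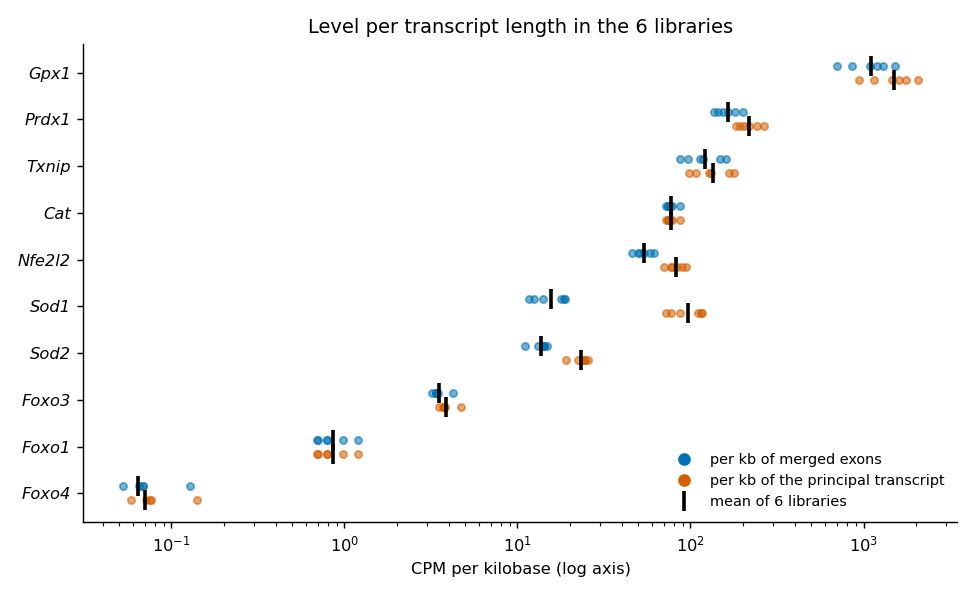
CPM per kilobase of each member in the 6 libraries on a log axis, by merged exon length and by the length of the principal transcript. Points are libraries and bars are means. Foxo4 has 5 points because it had 0 reads in CD38-positive replicate 3. Sod1 moves from 15.6 to 96.5 with the shorter length.

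The genes around the members were described by 6 lists, chosen by function. Of their 129 genes 124 were tested, and 0 passed an adjusted p of 0.05 in edgeR, DESeq2 or limma-voom. At an unadjusted p under 0.05 there were 4 in edgeR, or 3.23%, against 5.08% of all tested genes: Selenow, Gsta4, Idh2 and Ncf1. DESeq2 gave 5 and limma-voom 6. The genes given below for each list are taken from the 4 with its smallest p-values.

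Of the 25 kinases and regulators that act on FoxO proteins, all tested, 11 had fitted values above 0 and 14 below, with a median of -0.04. Stk4, the kinase MST1 that can activate FoxO factors, had a log2 fold change of -0.41 (unadjusted p = 0.0863 in edgeR). Sgk1, a kinase that can inactivate them, had 0.39 (unadjusted p = 0.105). Its pairs differed by -0.02, 0.56 and 0.62. Insr, the insulin receptor, averaged 9.09 ± 0.874 CPM (SD, n = 3) where CD38 was high, and the CD38-negative mean was 12.4 ± 2.03 CPM (SD, n = 3). Its populations did not overlap, but its adjusted p in edgeR was 0.926. Pik3r1, the regulatory subunit of PI3 kinase, had 0.33 (unadjusted p = 0.119).

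Of 30 FoxO target genes 29 were tested, 15 with fitted values above 0 and 14 below, and the median was 0.07. Pik3ip1, an inhibitor of PI3 kinase, had -0.38 (unadjusted p = 0.0774 in edgeR) and was lower in all 3 pairs. Ccnd2, the cyclin D2 gene that FoxO factors repress, had -0.36 and was also lower in all 3 (unadjusted p = 0.0811). Bnip3, a mitophagy gene, had -0.33 (unadjusted p = 0.120). In the whole list 4 targets were higher and 3 lower in all 3 pairs.

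Of 15 other genes for superoxide and peroxide removal 14 were tested, 7 above and 7 below 0, with a median of -0.01. Selenow, a small selenoprotein, was at 92.9, 81.9 and 143 CPM in the CD38-positive and 106, 226 and 194 CPM in the CD38-negative libraries. It was lower in each pair, although CD38-positive replicate 3 lay above CD38-negative replicate 1, and its log2 fold change was -0.70 (SE 0.24, edgeR unadjusted p = 0.0109, adjusted p = 0.925). Gpx3, the secreted glutathione peroxidase, had 0.37 (unadjusted p = 0.0980) and Prdx2, a peroxiredoxin abundant in red cells, -0.34 (unadjusted p = 0.112). Ccs, the copper chaperone of SOD1, had -0.30 (unadjusted p = 0.215). Its pairs differed in direction, by 0.16, -0.65 and -0.41.

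All 27 genes of the thioredoxin and glutathione system were tested, 10 above and 17 below 0, with a median of -0.12. Idh2, the mitochondrial isocitrate dehydrogenase that makes NADPH, averaged 253 ± 65.6 CPM (SD, n = 3) where CD38 was high, and the CD38-negative mean was 185 ± 26.1 CPM (SD, n = 3). Its log2 fold change was 0.43 (unadjusted p = 0.0478 in edgeR, adjusted p = 0.926), and it was higher in all 3 pairs. Gstm5, a glutathione transferase, had -0.43 and populations that did not overlap (unadjusted p = 0.0534). Arrdc3, an arrestin relative of Txnip, had -0.53 (unadjusted p = 0.0850) and G6pdx, the entry enzyme of the pentose phosphate pathway, 0.34 (SE 0.19). The pairs of Arrdc3 differed in direction, by -0.43, -1.55 and 0.36.

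Of 22 NRF2 regulators and targets 21 were tested, 11 above and 10 below 0, with a median of 0.12. Gsta4, a transferase for lipid peroxidation products, was at 6.65, 5.71 and 9.38 CPM in the CD38-positive and 8.81, 15.3 and 14.98 CPM in the CD38-negative libraries. It was lower in each pair, with a log2 fold change of -0.83 (SE 0.28, edgeR unadjusted p = 0.0107, adjusted p = 0.925). Pgd, which also makes NADPH, had 0.38 and was higher in all 3 pairs (unadjusted p = 0.0610). Hmox1, the haem oxygenase gene induced by NRF2, had 0.42 (unadjusted p = 0.0872), and Bach1, a repressor of NRF2 targets, had -0.69 (unadjusted p = 0.0715). Their pairs differed in direction, by -0.14, 0.99 and 0.41 for Hmox1 and by 0.06, -0.51 and -1.62 for Bach1.

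Among 10 genes of the NADPH oxidases, which make superoxide, 8 were tested, 6 above and 2 below 0, with a median of 0.18. Ncf1, a cytosolic subunit of the phagocyte oxidase, was at 610, 493 and 327 CPM in the CD38-positive and 524, 193 and 238 CPM in the CD38-negative libraries. It was higher in each pair, by 0.22, 1.35 and 0.46, and its log2 fold change was 0.67 (SE 0.23, edgeR unadjusted p = 0.0118, adjusted p = 0.925). Cybb, the catalytic subunit of the same oxidase, had 0.26 (unadjusted p = 0.227). Nox4 had 1.36 (unadjusted p = 0.0515) at means of 1.87 and 0.725 CPM, and Nox1 had -0.37 (unadjusted p = 0.219). The pairs of these genes differed in direction, by 0.40, 0.37 and -0.003 for Cybb. They differed by 1.14, -0.15 and 2.93 for Nox4 and by -0.25, -1.04 and 0.20 for Nox1. The phagocyte oxidase is a neutrophil and monocyte complex, whose markers are given above by library. CD38-positive replicate 1 was highest both in Ncf1 and in the sum of these markers. CD38-positive replicate 2 was lowest in that sum (79997 CPM) but at 493 CPM in Ncf1. CD38-negative replicate 3 was at 138923 CPM in the sum and at 238 CPM in Ncf1. The part of these markers in the oxidase values was not tested.

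**Figure D5:**
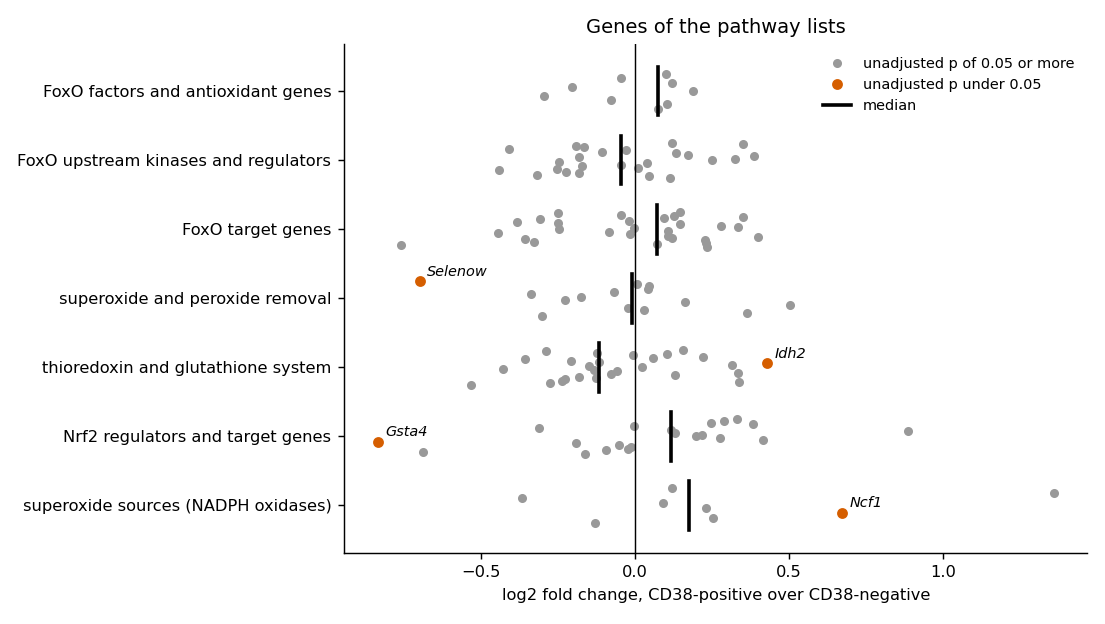
Log2 fold change of each tested gene in the members and the 6 pathway lists, CD38-positive over CD38-negative. Black bars are list medians, which lie between -0.12 and 0.18, and coloured points are the 4 genes with an unadjusted p under 0.05.

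The libraries held 16771180 to 18558610 counts each. The 10 HSC markers examined had reads in all 6 libraries, and at an unadjusted p under 0.05 in edgeR 4 of them (Kit, Ly6a, Hlf and Meis1) were lower and 0 higher in CD38-positive libraries, with none past the adjusted threshold. By the same measure 2 of 14 neutrophil and monocyte markers, Csf1r and Mmp8, were higher and 0 lower. Of 8 B and plasma cell markers 3, Igha, Jchain and Igkc, were lower, and Igha passed the adjusted threshold. Among all tested genes 2.47% were higher and 2.61% lower at an unadjusted p under 0.05. The HSC markers' summed levels were 714 to 1511 CPM in CD38-positive and 941 to 2122 CPM in CD38-negative libraries. Neutrophil and monocyte markers stood far above them, at 79997 to 176183 CPM and 86237.5 to 138923 CPM. Erythroid markers took 4699 to 12220 CPM and 6961 to 10451 CPM, and 8 B and plasma cell markers 126 to 519 CPM and 719 to 2798 CPM. Of 7 T and NK cell markers 5 had reads in every library, as had 6 of 6 megakaryocyte and 4 of 5 endothelial markers, and none of these lists had a marker at 0 throughout. Their summed levels were 124 to 323, 92.8 to 255 and 92.8 to 156 CPM in CD38-positive and 169 to 282, 147 to 159 and 100 to 140 CPM in CD38-negative libraries. Only the B and plasma cell sums did not overlap between the populations. Markers of other blood cells were thus measured in the libraries labelled as HSCs, and their part in the members' levels was not tested.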

How the data were processed

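RNA was sequenced in bulk from 6 libraries of sorted mouse HSCs, 3 CD38-positive and 3 CD38-negative. The authors deposited raw read counts for 49585 Ensembl genes per library. Cutadapt, STAR and HTSeq 0.6.1p1 are named in the submitters' processing notes, with GRCm38; the strand setting and annotation release are not given in the sources used here. Symbols matched 49326 identifiers. Coordinates and lengths came from GENCODE M21 and promoters from RefSeq, both on GRCm38.

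In R 4.3.3, filterByExpr kept 14785 genes. TMM scaling and the quasi-likelihood test of edgeR 4.0.16 were applied in a model of pair plus population, with Benjamini-Hochberg adjustment over all tested genes. CPM are on TMM-scaled sizes; log2 CPM, used for pair differences, had a prior count of 2. The pairs come from the design text, and with the population means removed the libraries of a pair correlated at 0.34, 0.12 and 0.24. Standard errors came from the quasi-F statistic and 95% intervals from its degrees of freedom. Near-identical copies were BLASTN matches of at least 90% identity over 300 bases. The procedure was tested on simulated data.

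Total counts limit precision to about 3 counts, 0.166 to 0.183 CPM, counting error only. Alternatives were DESeq2 1.42.0, limma 3.58.1 with voom, other scalings, filters and an estimator, no block, and each pair left out. The members and lists were chosen with earlier results of these data known. All members are named, and of each pathway list the genes past the threshold and the 4 with the smallest p-values. Single genes of these and of the marker lists are not reported here. Genes like Gpx1 were the 3 with the highest correlation to the member with the smallest p. Foxo6 and the genes that overlap or copy a member were named after their values were seen.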

Additional observations from a re-analysis of the deposited data

How the results depend on the processing

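No member passed the threshold under any of the 13 alternatives to the fit (0 in each, and 0 at an unadjusted p under 0.05 in edgeR, DESeq2 and limma-voom alike). The number of genes past it over the whole table, 2 with the replicate block, moved, and the cause was not tested. The count fell to 0 in edgeR with no replicate block, where 417 genes had an unadjusted p under 0.05, and to 0 on library totals left unscaled, where 595 had. It was 11 in DESeq2, 7 with DESeq2 size factors in edgeR, 7 at a threshold of 0.1, 6 with edgeR's newer estimator, 13 with a mean of at least 10 counts and 80 with no filter, and dropping each pair in turn gave 2 to 41. It stayed within 1.5 times of the main count in limma-voom, at 3, and with TMM on libraries without marker genes, at 2.

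When each pair was left out in turn, the log2 fold change ranged from -0.15 to 0.38 for Foxo1, -0.17 to 0.046 for Foxo3, -0.12 to 0.32 for Sod1, -0.12 to 0.050 for Sod2, -0.015 to 0.13 for Cat, -0.62 to -0.13 for Gpx1, -0.35 to -0.12 for Prdx1, -0.064 to 0.27 for Txnip and 0.06 to 0.27 for Nfe2l2. Leaving out a pair was the only kind of alternative among the 12 run for each member that changed a sign. Foxo4, below the filter in the main model, was tested only with no filter and was not called there. The level per kilobase, with the principal transcript length added after the data were seen, moved by more than 1 SD for Sod1, Sod2, Gpx1, Prdx1 and Nfe2l2.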
